A study of Drosophila melanogaster with 6 samples.

Results

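Translation initiation and elongation factors are the 45 genes on the array whose current symbol starts with eIF or eEF, out of 11982 genes named by a probe set with 1 symbol. They were chosen by symbol alone, a rule that used none of their values but was set with earlier results of these data known. They carried 49 of the 18769 probe sets tested, and each gene was represented by the probe set with the highest mean over the 6 arrays. The reference gene table lists 52 such genes. The other 7 (eEF1alpha1, eEF1beta, eEF2, eIF1A, eIF2alpha, eIF2gamma and eIF4H1) had no probe set with their symbol alone and are not analysed here.

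The samples were 3 arrays of ROW RNAi cells and 3 arrays of control cells. Both are S2 cells, a hemocyte-like culture line derived from Drosophila melanogaster embryos. For ROW RNAi, cells took up double-stranded RNA targeting ROW from the medium over 96 h. ROW, a zinc finger protein, is a partner of HP1c on chromatin. The control cells are labelled wild type, with no double-stranded RNA named, so loss of ROW and exposure to double-stranded RNA cannot be told apart. The labels do not name separate cultures behind the 3 arrays of a group. The p-values therefore cover the spread among arrays alone, and that spread may be technical. All values below are log2 expression values made by the authors with RMA, which corrects background, brings the arrays to one distribution and summarises the probes of each set. Bringing the arrays to one distribution hides any change that most transcripts share.

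Protein synthesis in eukaryotes begins when the small ribosomal subunit is loaded with initiator tRNA by eIF2, held open for scanning by eIF1 and eIF1A, and tied to the mRNA through the large scaffold eIF3. The mRNA is presented by eIF4F, in which eIF4E binds the cap, eIF4A unwinds the leader and eIF4G bridges both to eIF3. eIF5 and eIF5B then complete start codon selection and subunit joining, eIF2B recharges eIF2 with GTP, and the eEF proteins deliver aminoacyl-tRNA and move the ribosome along. In Drosophila several of these factors exist as a broadly expressed gene beside paralogs known mainly from the male germline.

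The row transcript was lower on every ROW RNAi array. Its brightest probe set stood at 9.04, 8.91 and 8.91 on the ROW RNAi arrays (replicates 1, 2 and 3) and at 10.4, 10.6 and 10.5 on the control arrays, which is −1.58 on the log2 scale (SE 0.07, adjusted p = 0.0023 by limma). Its 2 other probe sets gave −2.61 and −2.66, so the size of the knockdown depended on the probe set. Array medians lay between 4.88 and 5.04. On the first principal component, which held 66.9% of the variance, ROW RNAi replicates 1, 2 and 3 scored 42.7, −19.5 and 20.8, and the controls −3.69, −26.5 and −13.7. ROW RNAi replicate 2 thus lay among the controls, and in both groups replicate 1 scored highest and replicate 2 lowest. Without ROW RNAi replicate 2 limma also called 0 of the translation factor genes (lowest adjusted p = 0.19). All 10 hemocyte-type marker genes measured for S2 cells, among them Hml and srp, were above background on the 6 arrays, with list means of 10.7 to 10.8 on ROW RNAi arrays and 10.8 to 10.9 on control arrays. Of that list limma called 0 higher and 1 lower, the pan-hemocyte gene He at −0.69 (SE 0.06), where 0.405% of all probe sets were called higher and 0.757% lower. Among 7 lamellocyte and crystal cell markers it called 2 higher and 0 lower (list median 0.13). These were atilla, a lamellocyte surface protein, at 1.58 (SE 0.13, 2.99-fold) and ItgaPS4, an integrin subunit, at 0.46 (SE 0.07). It called 0 of 5 neuronal genes measured (6 listed) and 0 of 3 muscle genes measured (5 listed) in either direction. The part of such cells in the values below was not tested. The background level was 3.39, the 95th percentile of 17 tag control probe sets that match no fly transcript. It is a low limit, below every array median, and 14531 of 18769 probe sets passed the filter based on it. All 7 lamellocyte and crystal cell markers and all 5 neuronal genes measured also cleared it on the 6 arrays. Clearing it therefore does not mark a cell type, and values just above it do not show that a gene is expressed.

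None of the 45 translation factor genes passed the test. limma gave 0 higher and 0 lower at an adjusted p of 0.05, with adjusted p-values between 0.30 and 1.00, against 0.405% higher and 0.757% lower among all probe sets tested (218 of 18769, or 1.16%, in either direction). At an unadjusted p under 0.05 there were 2 of 45 (4.44%), eIF4E6 and eIF2D, against 13.8% of all probe sets. The median log2 fold change of the 45 genes was −0.02, and that of all tested probe sets was −0.03. Of the 45 genes 32 (71.1%) lay below 0, against 58.3% of all probe sets. The count was 29 without ROW RNAi replicate 3 and 39 with median centring. Whether this share differs from that of all probe sets was not tested. The log2 fold changes ran from −0.25 for eIF4H2 to 0.31 for eIF4E4, and both of these genes were dim.

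The intervals show how large a change these arrays would leave room for. Of the 41 genes above background on all 6 arrays, 38 had a 95% interval of the fold change inside 1.5-fold in either direction, 34 inside 1.2-fold and 41 inside 2-fold. The 3 whose interval reached 1.5-fold were eIF4E3 (log2 −0.61 to 0.26), eIF4E4 (−0.18 to 0.79) and eEF1alpha2 (−0.75 to 0.70). Each of these had a mean level of 6.40 or lower. For the other 4 genes, eIF3d2, eIF3f2, eIF4E7 and eIF4H2, the intervals set no limit, since their signal did not clear the background on every array. These are folds of the RMA values, which can be compressed by amplification and by the summary over probes.

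**Figure D1:**
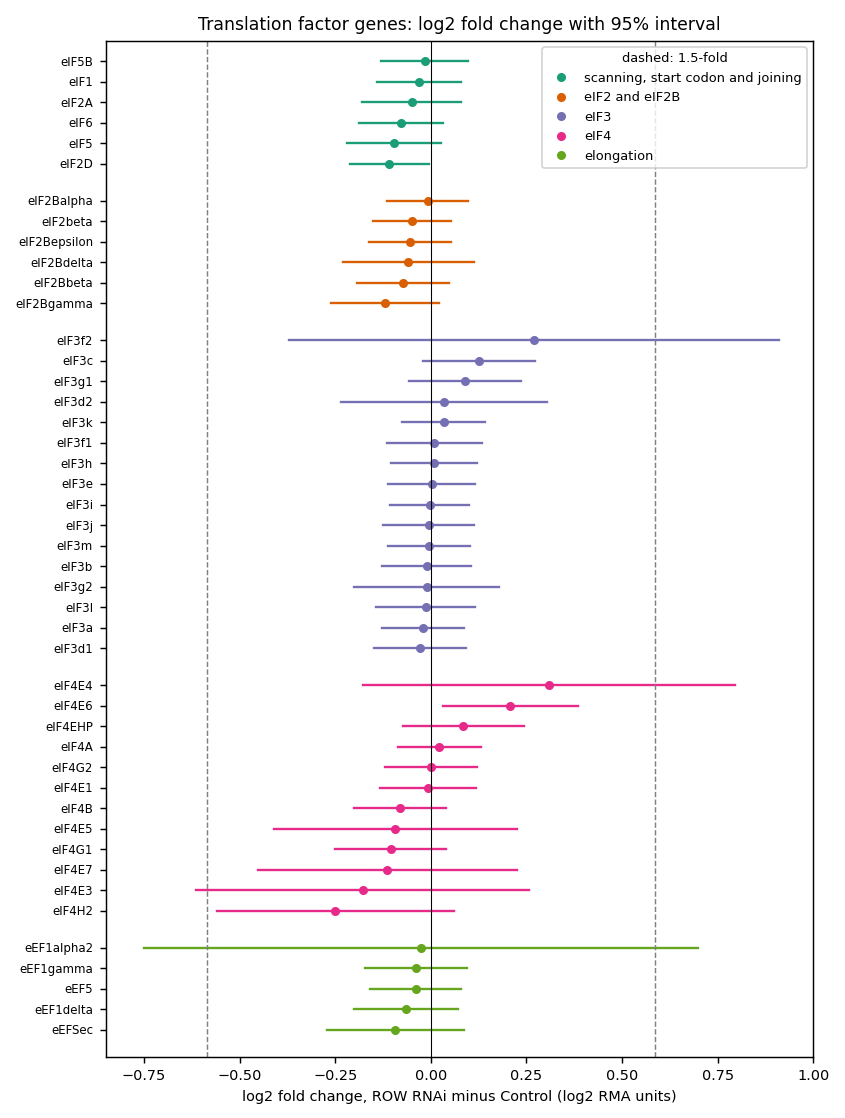
Log2 fold change (ROW RNAi minus Control) of each of the 45 translation factor genes with its 95% interval from limma, ordered by value within role group and coloured by group. The dashed lines mark 1.5-fold in either direction, which only the intervals of eIF3f2, eIF4E3, eIF4E4 and eEF1alpha2 reach.

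Precision followed the level of the gene. The 35 genes with a mean level above 8 (a limit set after the values were seen) had standard errors of 0.04 to 0.07, and the 10 at or below it had standard errors of 0.07 to 0.29. The median log2 fold change of the 35 brighter genes was −0.02, as it was for all 6505 probe sets above that level (−0.02). The probe sets of eIF4E7 and eIF4H2 were at or below background on every array, that of eIF3d2 was above it on 2 ROW RNAi arrays and 0 control arrays, and that of eIF3f2 on 2 ROW RNAi arrays and 1 control array. With these 4 probe sets a difference was not detectable at this signal. The probe sets of 8 genes (eIF2Bdelta, eIF3b, eIF4A, eIF4E1, eIF5, eEF1alpha2, eEF1gamma and eEF5) are of a type that can share probes with other transcripts, and their values may include those.

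**Figure D2:**
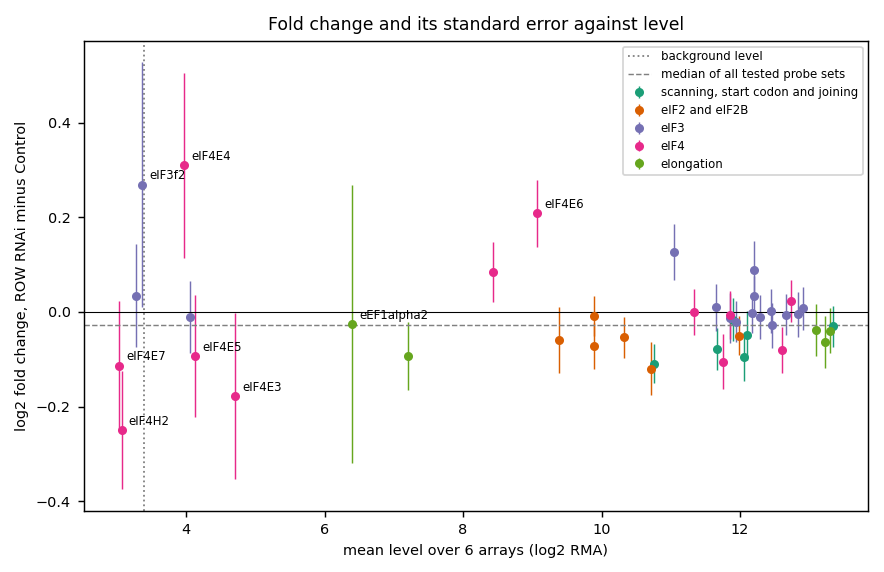
Log2 fold change (ROW RNAi minus Control, bars are the limma SE) against the mean level over 6 arrays (log2 RMA) of the 45 translation factor genes, coloured by role group. Genes above a level of 8 lie between −0.12 and 0.21, and the dim genes at the left spread more widely, with longer bars.

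In 10 genes the 3 arrays of one group lay wholly on one side of the other, against 21.4% of all probe sets. The ROW RNAi arrays were above all control arrays in 3 of 45 genes (6.67%), eIF3c, eIF3g1 and eIF4E6, against 7.00% of all probe sets. They were below all control arrays in 7 of 45 (15.6%), eIF2Bepsilon, eIF2Bgamma, eIF2beta, eIF4B, eIF2D, eIF5 and eIF6, against 14.4% of all probe sets. Both shares are near those of the array as a whole. All 10 genes were among the 35 brighter ones, where 3 of 35 (8.57%) lay above and 7 of 35 (20%) below, against 10.9% and 20.3% of all probe sets above a level of 8.

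Factors of scanning, start codon selection and subunit joining were the first group, with 6 genes measured and 0 past the test. All 6 had log2 fold changes below 0, with a median of −0.06 and a range from −0.11 to −0.02, and 5 of 6 stayed below 0 without ROW RNAi replicate 3. Among all probe sets 58.3% lay below 0. eIF2D, which in mammals can deliver tRNA to the small subunit without GTP, stood lowest. It was at 10.69, 10.72 and 10.71 on the ROW RNAi arrays and at 10.82, 10.82 and 10.81 on the control arrays. The groups did not overlap and the spread within each was small, yet the difference was only −0.11 (SE 0.04, unadjusted p = 0.042, limma adjusted p = 0.34). An unmoderated test, which does not borrow spread from other probe sets, called it (adjusted p = 0.048).

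eIF5, which promotes GTP hydrolysis by eIF2 at the start codon, was at 12.05, 12.01 and 11.95 in ROW RNAi cells and 12.07, 12.11 and 12.12 in control cells, a log2 fold change of −0.10 (SE 0.05, adjusted p = 0.45). ROW RNAi replicate 3 was the lowest array and replicate 1 lay just under the lowest control. eIF6, which keeps the large subunit from joining too early, differed by −0.08 (SE 0.04). eIF5B, the GTPase of subunit joining, was at 11.91, 11.92 and 11.85 in ROW RNAi cells and 11.90, 11.93 and 11.90 in control cells, so that the groups overlapped (−0.02, SE 0.05). eIF1, which guards start codon fidelity, differed by −0.03 (SE 0.04), and eIF2A by −0.05 (SE 0.05).

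The eIF2 and eIF2B group had 6 genes measured, the beta subunit of eIF2 and all 5 subunits of its exchange factor eIF2B, and 0 passed. All 6 log2 fold changes were below 0, with a median of −0.06. With cyclic loess 5 of 6 were below 0, as they were without ROW RNAi replicate 1. eIF2Bgamma, with eIF2Bepsilon a subunit of the catalytic arm, had the lowest value. It stood at 10.70, 10.70 and 10.58 on the ROW RNAi arrays and 10.74, 10.82 and 10.78 on the control arrays (−0.12, SE 0.06, adjusted p = 0.42). The groups did not overlap, but the gap between ROW RNAi replicate 2 and control replicate 1 was smaller than the range within either group.

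eIF2beta, which binds eIF5 and eIF2B, gave the tightest values of the group. It was at 11.95, 11.96 and 11.95 in ROW RNAi cells and 12.01, 12.00 and 12.01 in control cells, with SDs of 0.0020 and 0.0058 (n = 3 arrays each). The groups did not overlap, and the difference of −0.05 (SE 0.04, adjusted p = 0.60 by limma) was called by the unmoderated test (adjusted p = 0.038), in which those small SDs stand alone. eIF2Balpha, a regulatory subunit, was highest at −0.01 (SE 0.04), and its sign turned with cyclic loess. eIF2Bbeta, eIF2Bdelta and eIF2Bepsilon lay between, at −0.07, −0.06 and −0.05.

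Subunits of eIF3 were the largest group and held closest to 0. Of 16 genes measured, 0 passed, 8 had log2 fold changes above 0 and 8 below (13 below with median centring), with a median within 0.01 of 0. For the 13 genes other than the dim paralogs eIF3d2, eIF3f2 and eIF3g2, log2 fold changes ran from −0.03 to 0.13 and 95% intervals from −0.15 to 0.27. Their mean levels were between 11.0 and 12.9. eIF3c, a core subunit that contacts eIF1 and eIF5, had the highest value among them. It was at 11.07, 11.20 and 11.07 in ROW RNAi cells and 11.02, 10.93 and 11.00 in control cells (0.13, SE 0.06, adjusted p = 0.41). The groups did not overlap, and ROW RNAi replicate 2 was the highest array.

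eIF3g1, an RNA-binding subunit near the mRNA entry channel, was at 12.18, 12.21 and 12.34 on the ROW RNAi arrays and 12.18, 12.14 and 12.14 on the control arrays (0.09, SE 0.06, adjusted p = 0.54). ROW RNAi replicate 3 was the highest array, and ROW RNAi replicate 1 differed from control replicate 1 in the third decimal only. eIF3a, the scaffold subunit, was at 11.92, 11.96 and 11.93 in ROW RNAi cells and 11.97, 11.97 and 11.93 in control cells (−0.02, SE 0.04). eIF3d1, the subunit that can itself contact the cap in mammals, had the lowest value, −0.03 (SE 0.05), and eIF3l stood at −0.01 (SE 0.05).

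The eIF4 group brings the mRNA to the ribosome and held the widest spread, with 12 genes measured, 0 past the test, 5 above and 7 below 0, and a median of −0.04. The helicase eIF4A was at 12.78, 12.73 and 12.74 in ROW RNAi cells and 12.71, 12.73 and 12.74 in control cells (0.02, SE 0.04, adjusted p = 0.83). Its sign turned with median centring, at −0.02. eIF4B, the cofactor of eIF4A, was at 12.60, 12.57 and 12.51 in ROW RNAi cells and 12.62, 12.63 and 12.67 in control cells (−0.08, SE 0.05, adjusted p = 0.50). Of its 3 other probe sets, 2 gave −0.08 and −0.10 (SE 0.05 and 0.07), and the dimmest gave 0.20 (SE 0.15), so the probe sets did not share a sign. eIF4H2, at 2.93, 3.09 and 2.80 in ROW RNAi cells and 2.97, 3.36 and 3.25 in control cells, was below background throughout. Its paralog eIF4H1 is among the genes not analysed here, so the eIF4H pair was not compared.

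The eIF4E family supplies the cap-binding subunit, and all 7 of its genes with a symbol of their own had a probe set. eIF4E1, the general cap-binding protein of fly cells, was at 11.86, 11.88 and 11.82 on the ROW RNAi arrays and 11.81, 11.85 and 11.92 on the control arrays. The groups overlapped and the fold change interval was −0.13 to 0.12 on the log2 scale (estimate −0.01, SE 0.05). eIF4E6 was the other way about. It was at 9.16, 9.24 and 9.12 in ROW RNAi cells and 8.97, 9.06 and 8.86 in control cells, with all 3 ROW RNAi arrays above all controls, a 1.15-fold difference (log2 0.21, SE 0.07, 95% interval 0.03 to 0.38, unadjusted p = 0.028). Adjusted over all probe sets, limma's p was 0.30, and it ran from 0.14 to 0.56 over the alternative settings, so that eIF4E6 was called under none of those.

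eIF4EHP, the homologous protein that binds the cap without eIF4G and represses mRNAs such as caudal in the embryo, was at 8.39, 8.46 and 8.57 in ROW RNAi cells and 8.44, 8.36 and 8.38 in control cells. The groups overlapped (0.08, SE 0.06, adjusted p = 0.58). Its second probe set was at 7.59, 7.50 and 7.75 in ROW RNAi cells and 7.45, 7.45 and 7.37 in control cells, with no overlap (0.19, SE 0.08, unadjusted p = 0.049, adjusted p = 0.36). Both probe sets thus had a sign above 0, and neither passed.

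The other eIF4E paralogs were dim. eIF4E3, a cap-binding protein known from spermatogenesis, was at 4.38, 4.53 and 4.95 in ROW RNAi cells and 4.75, 5.01 and 4.63 in control cells (−0.18, SE 0.18). eIF4E4 was at 4.15, 3.86 and 4.37 in ROW RNAi cells and 4.17, 3.61 and 3.67 in control cells (0.31, SE 0.20). Control replicate 1 was higher than ROW RNAi replicates 1 and 2, so the groups overlapped. eIF4E5 was at 4.14, 4.13 and 3.97 in ROW RNAi cells and 4.44, 4.0 and 4.08 in control cells (−0.09, SE 0.13). The probe set with the symbol eIF4E7 alone was at 2.82, 2.83 and 3.29 in ROW RNAi cells and 3.06, 3.09 and 3.12 in control cells, all under background. Another 2 probe sets are annotated to both eIF4E7 and CG17010, so their signal cannot be assigned to either gene, and both were above background on all 6 arrays. One was at 3.69, 3.87 and 3.84 in ROW RNAi cells and 4.08, 4.08 and 4.10 in control cells, with no overlap (−0.29, two-sided exact permutation p = 0.10). The second was at 4.21, 4.59 and 4.52 in ROW RNAi cells and 4.48, 4.84 and 4.55 in control cells, and overlapped (−0.18, exact permutation p = 0.50). The adjusted p was 0.665 for eIF4E3 and 0.522 for eIF4E4 in limma.

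Germline and testis markers were read beside these paralogs, since several of the paralogs are known from the testis. Of 19 measured, 10 were above background on all arrays and 4 on none. The mean level of the list was 4.99, 4.66 and 4.91 on ROW RNAi replicates 1, 2 and 3 and 4.75, 4.66 and 4.69 on the control arrays. It was highest on ROW RNAi replicates 1 and 3, where eIF4E4 was also high, although eIF4E4 on control replicate 1 was as high as on ROW RNAi replicate 1. This was not particular to the germline list. Array medians were also highest on ROW RNAi replicates 1 and 3 (5.04 and 4.97, against 4.94 or lower elsewhere). So were the means of the muscle list (3.85 and 3.63, against 3.35 or lower elsewhere), though of its 3 genes only Mlc2 was highest on both. Not every list followed. The neuronal list was highest on ROW RNAi replicate 1 and control replicate 1 (6.87 and 6.77). The lamellocyte and crystal cell list was highest on ROW RNAi replicate 2 (7.17). The germline and testis list had 0 members past the test in either direction, 9 above and 10 below 0, and a median of −0.0039. ROW RNAi arrays lay wholly above the controls in 4 of 19 (can, comr, dj and ProtB) and wholly below in 3 (topi, tomb and fzo), against 7.00% and 14.4% of all probe sets. Of these, comr was above background on 0 arrays, can on 1 and dj on 2, so their values lay at or near background. ProtB, topi, tomb and fzo were above background on all 6. The lowest log2 fold change was that of fzo, −0.41 (SE 0.13). The highest was that of the germline helicase gene vas, 1.72 (SE 0.84), which was between 3.47 and 6.5 on the ROW RNAi arrays and between 2.91 and 4.20 on the control arrays and overlapped. What part such variation has in the values of the dim paralogs was not tested.

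**Figure D3:**
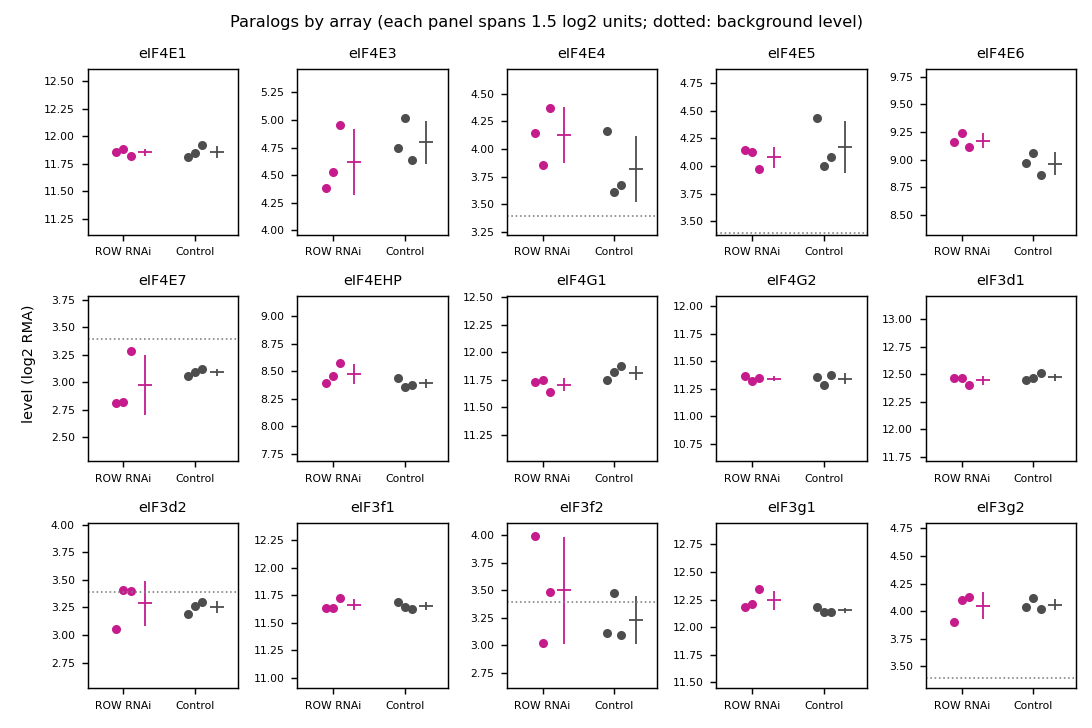
Level (log2 RMA) on each array of the 15 genes of the paralog families compared, with ROW RNAi arrays left and control arrays right in each panel, replicates in order, and the mean and SD (n = 3) beside the points. Every panel spans the same height, the dotted line is the background level, and in eIF4E6 and eIF3g1 all ROW RNAi points lie above all control points, in eIF3g1 by less than 0.01.

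Paralogs were set against each other by the difference of their log2 values within each array. This cancels a shift that is the same for every gene of an array, but not one that depends on the level. Relative to each gene's control mean, the median of the factors above a level of 8 was −0.01, −0.02 and −0.04 on ROW RNAi replicates 1, 2 and 3. That of the dimmer factors was −0.15, −0.07 and 0.11. Only the change of the difference between groups was read, since levels of different probe sets cannot be compared. Of 25 pairs in 5 families (21 of them within eIF4E), 0 differed between groups after adjustment over the 25 (adjusted p between 0.54 and 1.00). With 3 arrays against 3, a two-sided exact permutation test cannot go below 0.10, which 2 pairs reached. In 17 pairs both genes were above background on every array. With 1 array left out, the change moved by over 1.5 times in 23 of the 25 pairs and its sign turned in 7, so their order by size rests on single arrays.

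Of those 2 pairs, one was eIF4E1 minus eIF4E6. The difference was 2.70, 2.64 and 2.70 in ROW RNAi cells and 2.84, 2.79 and 3.06 in control cells, a change of −0.22 (means 2.68 ± 0.04 and 2.90 ± 0.15, SD, n = 3 arrays each, two-sided exact permutation p = 0.10, adjusted p = 0.54). All 3 ROW RNAi arrays lay below all controls, so eIF4E6 stood higher relative to eIF4E1, with a gap to the nearest control smaller than the control SD. Without control replicate 3 the change was −0.13. The second pair was eIF4E4 minus eIF4E5, at 0.01, −0.27 and 0.40 in ROW RNAi cells and −0.27, −0.39 and −0.41 in control cells. Its change of 0.40 (exact permutation p = 0.10) was measured on dim probe sets and was 0.22 without ROW RNAi replicate 3, and ROW RNAi replicate 2 lay within 0.01 of control replicate 1.

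The pair of eIF4E6 and eIF4EHP, the 2 brighter paralogs with positive values, changed by 0.12 (exact permutation p = 0.20) and overlapped. eIF4E1 minus eIF4EHP changed by −0.09 (exact permutation p = 0.40). eIF4E3 minus eIF4E4 changed by −0.49 (exact permutation p = 0.20), and by −0.28 without control replicate 2.

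eIF4G has a broadly expressed gene, eIF4G1, and a paralog, eIF4G2, known for its role in male meiosis. eIF4G1, which lies on chromosome 4, was at 11.73, 11.75 and 11.64 in ROW RNAi cells and 11.74, 11.82 and 11.87 in control cells (−0.11, SE 0.06, adjusted p = 0.47). The groups came close and overlapped by the highest ROW RNAi array. eIF4G2 was at 11.36, 11.32 and 11.35 in ROW RNAi cells and 11.36, 11.29 and 11.38 in control cells, with a 95% interval of −0.12 to 0.12 on the log2 scale. eIF4G2 was above background on all 6 arrays. The within-array difference of the pair changed by −0.11 (means 0.36 ± 0.06 in ROW RNAi cells and 0.47 ± 0.08 in control cells, SD, n = 3 arrays each, exact permutation p = 0.20, adjusted p = 0.54).

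Within eIF3, 3 subunits have a bright and a dim paralog. eIF3f1 was at 11.63, 11.64 and 11.72 in ROW RNAi cells and 11.69, 11.65 and 11.62 in control cells, and eIF3f2 at 3.99, 3.02 and 3.48 in ROW RNAi cells and 3.11, 3.48 and 3.10 in control cells. The value of 3.99 came from ROW RNAi replicate 1 alone, and the pair's difference changed by −0.26 (exact permutation p = 0.70). eIF3g2 was at 3.91, 4.11 and 4.13 in ROW RNAi cells and 4.03, 4.12 and 4.02 in control cells, and eIF3g1 minus eIF3g2 changed by 0.10 (exact permutation p = 0.30). eIF3d2 was at 3.05, 3.41 and 3.40 in ROW RNAi cells and 3.19, 3.26 and 3.30 in control cells, and the eIF3d pair changed by −0.06 (exact permutation p = 0.80).

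Elongation factors were the smallest group, with 5 genes measured and 0 past the test. All 5 log2 fold changes were below 0 (median −0.04, range −0.09 to −0.03), but 4 of 5 were with cyclic loess, with array weights and without control replicate 1 or ROW RNAi replicate 2. eEF1delta, an exchange factor that recharges eEF1alpha with GTP, was at 13.24, 13.22 and 13.12 in ROW RNAi cells and 13.22, 13.26 and 13.30 in control cells (−0.06, SE 0.06). eEF1gamma, the structural subunit of the same exchange complex, was at 13.09, 13.11 and 13.02 in ROW RNAi cells and 13.05, 13.13 and 13.16 in control cells (−0.04, SE 0.05). In both genes ROW RNAi replicate 3 was the lowest array and the groups overlapped.

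eEF5, the fly eIF5A, which relieves stalled ribosomes and carries the amino acid hypusine, was at 13.27, 13.28 and 13.27 in ROW RNAi cells and 13.31, 13.27 and 13.37 in control cells (−0.04, SE 0.05). eEFSec, the elongation factor for selenocysteine, was dimmer, at 7.10, 7.22 and 7.18 in ROW RNAi cells and 7.13, 7.29 and 7.34 in control cells (−0.09, SE 0.07). eEF1alpha2, which delivers aminoacyl-tRNA to the ribosome, varied most of the elongation factors between arrays of one group. It was at 6.85, 5.93 and 6.38 in ROW RNAi cells and 6.86, 6.17 and 6.21 in control cells (−0.03, SE 0.29), so that replicate 1 was high in both groups. Its paralog is among the genes not analysed here.

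The bright factors were also read array by array. Among the 35 genes above a level of 8, ROW RNAi replicate 3 was the lowest of the 6 arrays in 16 (45.7%, against 29.4% of the 6505 probe sets above that level). Control replicate 3 was the highest array in 13 (37.1%, against 22.7%). The limit was first set 1 log2 unit lower, where the counts were 16 and 14 of 36 genes (44.4% and 38.9%, against 27.9% and 21.9% of 7218 probe sets). Relative to each gene's control mean, the median of the 35 genes was −0.01, −0.02 and −0.04 on ROW RNAi replicates 1, 2 and 3 and −0.01, 0.0034 and 0.01 on the control arrays. Leaving out ROW RNAi replicate 3 gave a median log2 fold change of −0.02 for the 45 genes, and leaving out ROW RNAi replicate 2 gave −0.03.

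Other genes of the translation pathway were read in lists chosen for their role, none of which had a member past the test in either direction (limma; 0.405% of all probe sets were called higher and 0.757% lower). Termination and recycling factors had 6 of 7 listed genes measured and a median log2 fold change of −0.01, from eRF1, the release factor that reads stop codons (−0.04, SE 0.04), to HBS1, which rescues stalled ribosomes (0.04, SE 0.07). Of 11 listed cap, poly(A) and mRNA-end regulators, 8 were measured (median −0.01), and Thor, cup and tral were not among them. The highest was Paip2, an inhibitor of poly(A)-binding protein. It was at 10.92, 10.80 and 10.99 in ROW RNAi cells and 10.77, 10.69 and 10.72 in control cells (0.17, SE 0.06, unadjusted p = 0.036, adjusted p = 0.33). The lowest was larp, a La-related RNA-binding protein (−0.12, SE 0.09).

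The 8 kinases and stress response genes measured, of 10 listed, had a median of −0.01. They ran from S6kII (−0.07, SE 0.12) to S6k, the ribosomal protein S6 kinase (0.06, SE 0.05). The stress factor gene crc, which is translated when eIF2 is phosphorylated, and the eIF2 kinase genes PEK and Gcn2 lay within this range. The 6 genes measured, from a longer list, for enzymes that modify eEF2 and eEF5 ran from Dph5 (−0.09, SE 0.05) to Dph3 (0.11, SE 0.09), both of diphthamide synthesis.

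Cytosolic aminoacyl-tRNA synthetases, which load tRNAs with amino acids, had 18 of 20 listed genes measured. Of their log2 fold changes 17 of 18 were below 0, against 58.3% of all probe sets, with a median of −0.06. In 9 of 18 the ROW RNAi arrays lay below all control arrays, against 14.4% of all probe sets and 20.3% of those above a level of 8, as all 18 were. The lowest was ValRS at 9.75, 9.74 and 9.71 in ROW RNAi cells and 9.88, 9.84 and 9.89 in control cells (−0.14, SE 0.04, unadjusted p = 0.022, adjusted p = 0.27), and the highest HisRS, within 0.01 of 0 (SE 0.05). None of the 18 passed, at an adjusted p of 0.27 or more, and 2 had an unadjusted p under 0.05. Mitochondrial translation factors had 8 of 9 genes measured below 0 (10 listed, median −0.08). They ran from mEFTu2 (−0.11, SE 0.05) to mRRF2, a mitochondrial recycling factor (0.18, SE 0.07, limma unadjusted p = 0.038, adjusted p = 0.33).

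**Figure D4:**
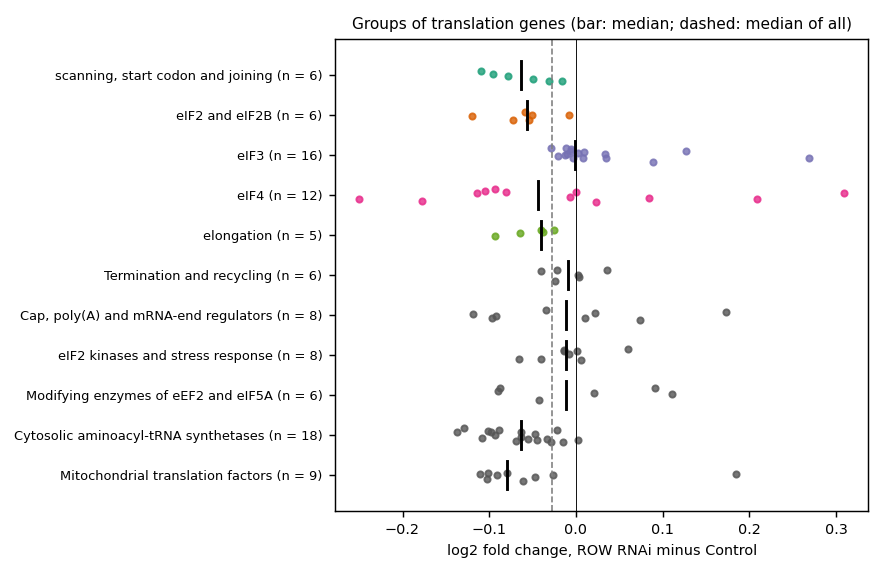
Log2 fold change (ROW RNAi minus Control) of each gene in the 5 role groups of translation factors (coloured) and in 6 other lists of the translation pathway (grey), with the number of genes measured. Black bars are medians, the dashed line is the median of all tested probe sets (−0.03), and the widest spread is in the eIF4 group.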

How the data were processed

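Total RNA of 3 ROW RNAi and 3 control arrays (25 ng each, amplified isothermally and labelled with biotin) was measured on Affymetrix Drosophila Genome 2.0 arrays, per the labels. Each array's deposited log2 values were made by the authors with RMA, per the submitters' processing notes (version not given in the sources used here). The number of arrays limits the precision.

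Of 18952 probe sets, 183 controls were left out, and the rest were tested with no filter using limma 3.58.1 in R 4.3.3 (lmFit, eBayes defaults, two-sided, Benjamini-Hochberg over all, threshold 0.05). SE and 95% intervals are moderated. Symbols came from the platform annotation, updated by gene ID (Release 6 plus ISO1 MT): 13647 probe sets had 1 symbol (13544 matched by ID), 402 several and 4720 none. Array pairing was checked through deviations from group means, which correlated at 0.48, 0.55 and −0.04 between same-numbered arrays. Array medians and scores on the first principal component also ranked the replicates alike in both groups. These values do not settle whether same-numbered arrays belong together, which the labels do not state. The main fit did not take the numbers as pairs, and a fit with them as a block was run as an alternative.

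On simulated data with 200 of 18769 probe sets changed, this comparison recovered 50% at a log2 change of 0.5, 70% at 1, 96% at 2 and 98% at 3, with 16 other calls. The changed probe sets were drawn from all levels (median SE 0.09 over all tested probe sets, against 0.05 for the factor genes). The recovery is therefore not that of the factor genes. Members, lists and the rule for named genes (members past the threshold, all paralogs, and the extremes of each role group and list) were chosen with earlier results of these data known. Other genes named, namely eIF2A, eIF2Bdelta, eIF2Bepsilon, eIF4B, eIF6, eEF5, crc, PEK, Gcn2, Hml, srp, can, comr, dj, ProtB, topi and tomb, were added after their values were seen. Figures used matplotlib 3.10.9, permutation tests scipy 1.17.1 and tables pandas 2.3.3 in Python 3.11.15. Alternatives were median centring, cyclic loess, 2 filters on low signal, trend with robust variance, no moderation, array weights, a replicate block, averaging a gene's probe sets and leaving out each array.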

Additional observations from a re-analysis of the deposited data

Results flagged for a closer look

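Signal outside the comparison came from the Affymetrix control probe sets for eIF4A, which are placed toward the 3′ end, the middle and the 5′ end of its transcript and were left out of the fit. The 3′ set was at 12.80, 12.77 and 12.78 on the ROW RNAi arrays and 12.75, 12.76 and 12.77 on the control arrays, and the 5′ set at 11.13, 11.14 and 11.07 on the ROW RNAi arrays and 10.99, 11.01 and 11.03 on the control arrays. On both, every ROW RNAi array lay above every control array, by a mean of 0.023 and 0.108 (two-sided exact permutation p = 0.10 each, the smallest that 3 against 3 can give). On the 3′ set the lowest ROW RNAi array (12.7734) barely cleared the highest control (12.7726). Among all tested probe sets 7.00% also lay wholly above, and 10.9% of those above a level of 8. The middle set overlapped (difference 0.033). The 3′ minus 5′ difference was 1.67, 1.63 and 1.71 in ROW RNAi cells and 1.76, 1.76 and 1.74 in control cells, a change of −0.084 with no overlap (exact permutation p = 0.10). Its part in the values of the translation factor genes was not tested.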

How the results depend on the processing

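Among the 45 factor genes the count changed was 0 in limma and under each alternative, leaving out each array included, except the unmoderated test, which called 2, both lower (eIF2beta and eIF2D, at 0.038 and 0.048). Of the 32 genes followed under the alternatives, 2 of 469 values passed. The median log2 fold change of −0.021 moved to −0.068 with median centring, which shifted the median of all probe sets to −0.074 likewise, and ran from −0.034 to −0.016 with 1 array left out, lowest without ROW RNAi replicate 1. No paralog pair passed under any alternative run (0 throughout, since 3 arrays a group cannot reach the threshold). Of 250 pair values, 0 moved beyond the spread between arrays. That spread is a wide limit, which does not show that the pairs were stable. With 1 array left out, 23 of the 25 pairs moved over 1.5 times and 7 turned sign. All probe sets changed, higher and lower numbered 218, 76 and 142. They numbered 107, 33 and 74 with median centring, 575, 207 and 368 above the median mean (fewer tested), 558, 222 and 336 with trend and robust variance, and 122, 43 and 79 with the unmoderated test. Without 1 array they ran from 24 to 517, 5 to 259 and 19 to 258; 517 came without ROW RNAi replicate 2, and the others gave 24 to 64. With the replicate number as a block they were 0, 0 and 0 in limma (2924 at an unadjusted p under 0.05), no factor gene was called, and row was −1.58 with an adjusted p of 0.056. Some of these settings tested fewer probe sets or used fewer arrays, and the cause of the differences in count was not tested.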
